A study of Mus musculus with 17 samples.

Results

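The 10 mitochondrial translation factors are nuclear genes whose proteins carry the mitochondrial ribosome through initiation (*Mtif2*, *Mtif3*), elongation (*Tufm*, *Tsfm*, *Gfm1*, *Guf1*), release (*Mtrf1*, *Mtrf1l*) and recycling (*Mrrf*, *Gfm2*). They were taken by gene symbol from a table of 56748 genes, and all 10 were found and were among the 16195 genes that passed the filter on low counts. Poly(A)-selected RNA was sequenced from 17 hearts of mice aged 12 to 16 months, with 8 control hearts (Ctrl) and 9 *Polg* hMut hearts (hMut). The hMut mice had the genotype *Polg* iMut/iMut; +/Ckmm-cre. In this allele Cre removes a wild-type *Polg* cassette, after which a proofreading-deficient form of the mtDNA polymerase is expressed. Ckmm-cre is driven by the muscle creatine kinase promoter, which directs Cre to muscle cells. Removal of the cassette in single cell types of the heart was not measured here. The labels call the other group control and give neither its alleles nor the age or sex of single mice.

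Mitochondrial ribosomes translate the 13 mRNAs of mtDNA, which encode core subunits of the respiratory chain and ATP synthase. Initiation factors place the start codon and the initiator tRNA on the small subunit, elongation factors deliver aminoacyl-tRNAs and move the ribosome along the mRNA, release factors free the finished chain at stop codons, and recycling factors split the ribosome into its subunits. All of these factors are encoded in the nucleus and imported, and cardiomyocytes depend on oxidative phosphorylation for most of their ATP.

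Total counts per heart lay between 34425783 and 46486964 in Ctrl and between 32915159 and 40175122 in hMut. The targeted gene, *Polg*, had a mean of 34.7 ± 7.31 CPM (SD, n = 8) in the controls, where CPM are counts scaled to a common library size by the TMM method, and of 57.9 ± 6.08 CPM (SD, n = 9) in the mutants, 8 of 9 of which exceeded the highest control. The 12 cardiomyocyte markers were detected in every library. Their summed level was 50363 to 60274 CPM in Ctrl and 38263 to 58582 CPM in hMut. Counts of *Xist* and Y-linked genes marked 3 Ctrl and 2 hMut libraries as female and the others as male. The libraries of hMut replicates 6 and 9 stood apart from the other 15, as given with the values below. Whole-heart RNA cannot separate fewer cells of a type from less RNA per cell.

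Levels were compared between genes in the Ctrl hearts as RPKM, which is CPM per kilobase of the gene length in the table. *Tufm* was the most abundant factor, at 93.7 ± 6.23 RPKM (SD, n = 8), followed by *Gfm1* at 48.8 ± 2.89. These are the factors that bring aminoacyl-tRNA to the ribosome and that move it by one codon. *Mtif2* stood at 14.5 ± 0.758 RPKM, *Tsfm* at 11.8 ± 0.975 and *Mrrf* at 8.85 ± 0.360. *Gfm2* was at 8.20 ± 0.544 RPKM and *Mtrf1* at 5.32 ± 0.360. The lowest 3 were *Mtrf1l* at 4.12 ± 0.338 RPKM, *Guf1* at 3.59 ± 0.200 and *Mtif3* at 2.97 ± 0.269. The range over the 8 hearts overlapped that of the next gene in this order for the pairs *Mrrf* and *Gfm2* and *Mtrf1l* and *Guf1*, and for no other neighbours. *Tufm* was 31.5 times as abundant as *Mtif3* on this scale. The order depends on the gene length used, which ran from 2125 bases (*Tufm*) to 10685 bases (*Gfm2*). In CPM, *Gfm1* was higher than *Tufm*, and *Guf1* higher than *Mtrf1* and *Mtrf1l*, in each Ctrl heart.

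The members' promoters were read from RefSeq (GRCm38.p6; 250 bases before to 50 after the start), where 8 of the 10 had an entry and *Mtif3* and *Guf1* had none. They were searched on both strands for 4 motifs of factors known to act on nuclear genes of mitochondria or on the mitochondrial stress response. The ETS motif CCGGAAG was found in 3 of the 8 (*Tufm*, *Gfm1* and *Mtif2*) and in 8.86% of all 32851 promoters of this length. The NRF1 motif GCGCANGCG was found in 1 of the 8 (*Gfm2*) and in 6.25% of all. The YY1 motif AAGATGGC and the CARE motif TGATGNAA, an element read by ATF4, were found in 0 of the 8, and in 2.75% and 3.97% of all promoters. The 4 promoters with a match are shown from 50 bases before to 50 bases after the start, because the matches lie there. Motifs are in capitals, and in *Mtif2* the first match is on the opposite strand.
*Tufm* (chr7:126487305-126487404, plus strand): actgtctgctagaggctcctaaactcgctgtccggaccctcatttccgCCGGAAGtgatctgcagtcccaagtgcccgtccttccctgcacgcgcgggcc
*Gfm1* (chr3:67430065-67430164, plus strand): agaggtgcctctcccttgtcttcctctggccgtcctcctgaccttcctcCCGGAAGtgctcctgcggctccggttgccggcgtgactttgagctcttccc
*Mtif2* (chr11:29526347-29526446, plus strand): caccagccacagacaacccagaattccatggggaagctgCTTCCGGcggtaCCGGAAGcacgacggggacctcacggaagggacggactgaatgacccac
*Gfm2* (chr13:97137887-97137986, plus strand): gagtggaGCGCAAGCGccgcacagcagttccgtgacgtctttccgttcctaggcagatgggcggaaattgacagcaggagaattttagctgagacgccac

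The comparison of hMut with Ctrl asked whether expression of the proofreading-deficient polymerase in the heart changed the mRNAs of these factors. No factor passed the test. Of the 10, 0 were called in either direction (edgeR's quasi-likelihood test, adjusted p under 0.05), where 4.62% of all tested genes were called, 3.48% higher and 1.14% lower. At an unadjusted p under 0.05 the count was 2, *Tufm* and *Gfm1*, a share no higher than the 25.8% of all tested genes at that level. DESeq2 and limma-voom with sample weights each also called 0 of 10, where they called 9.56% and 12.8% of all genes. Each had 2 of 10 at an unadjusted p under 0.05, where 26.4% and 29.7% of all genes were. The lowest adjusted p among the members in limma-voom was 0.0501.

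The direction of the fold changes was negative for 9 of 10 members with libraries scaled over all genes, and positive for 10 of 10 with libraries scaled on the cardiomyocyte markers. With the first scaling, the median log2 fold change was −0.12 over the members and 0.0023 over all tested genes. The median absolute log2 fold change was 0.12 over the members, 0.13 over all tested genes and 0.095 over the 8045 genes expressed at least as highly as the lowest member. With this scaling the members' 95% intervals reached down to −22.0% (lower bound for *Mtrf1l*) and up to 13.5% (upper bound for *Mtif3*). With libraries scaled on the cardiomyocyte markers, the lowest bound was −4.19% (*Mtrf1l*) and the highest 33.8% (*Mtif3*). The counts per library ranged from 335 to 9211 over the members, so counting error alone gave a CV between 1.04% and 5.46%.

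**Figure D1:**
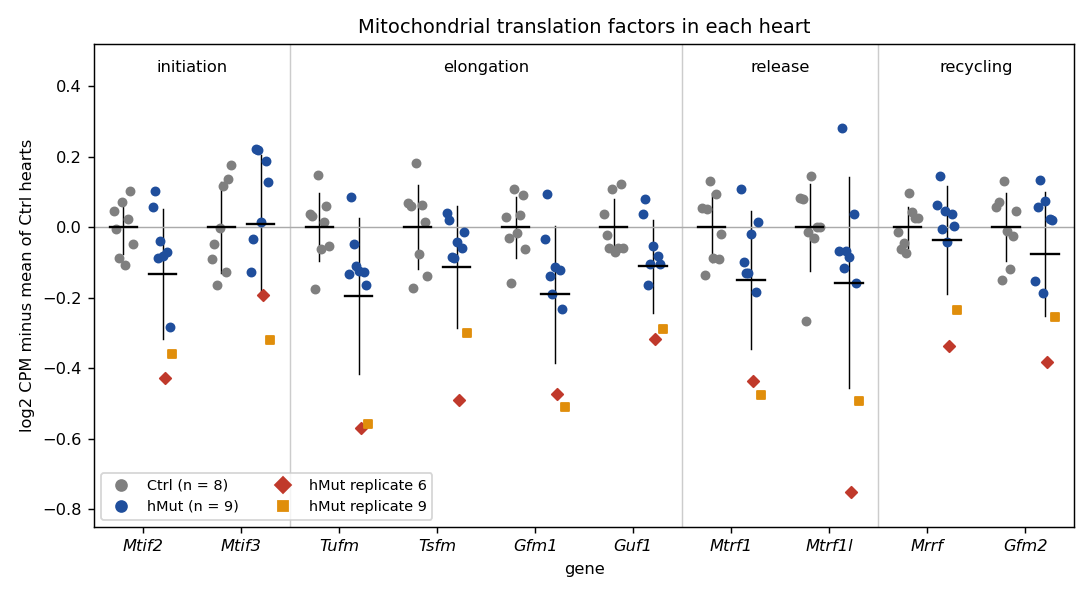
Each point is one heart: the log2 CPM (vertical axis) of a factor (horizontal axis, grouped by step) minus the mean of the 8 Ctrl hearts, with bars for the group mean and lines for 1 SD. The hMut hearts overlap the Ctrl hearts for all 10 genes, and hMut replicates 6 and 9 lie below every Ctrl heart in each of them.

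With libraries scaled over all genes, *Tufm* and *Gfm1* had the largest fold changes of the 10, whereas scaled on cardiomyocyte markers theirs were the smallest (0.05 for each). *Tufm*, the mitochondrial elongation factor Tu that delivers aminoacyl-tRNA, was at 176, 202 and 220 CPM in the lowest, median and highest Ctrl heart and at 134, 182 and 211 CPM in hMut. The groups overlapped, 8 of 9 hMut hearts were below the Ctrl median, and 2 were below every Ctrl heart. The mean was 199 ± 13.2 CPM (SD, n = 8) for Ctrl against 176 ± 25.2 CPM (SD, n = 9) for hMut. The fitted difference was −11.9% (95% interval −21.4% to −1.18%; log2 fold change −0.18, SE 0.079), which did not pass edgeR's quasi-likelihood test (Benjamini-Hochberg adjusted p = 0.158). *Gfm1*, the translocase, was at 193, 216 and 232 CPM in Ctrl and at 151, 196 and 229.9 CPM in hMut. In hMut 4 hearts were lower than the lowest Ctrl heart and the highest was inside the Ctrl range. The fitted difference was −11.8% (−20.5% to −2.19%; log2 fold change −0.18, SE 0.071, edgeR adjusted p = 0.128). It passed the threshold only when hMut replicate 2 was left out (−0.22, edgeR adjusted p = 0.0410), a fit that called 11.1% of all genes. In GRCm39, the build of the counts, *Tufm* lies at chr7:126086533-126089903 on the plus strand and *Gfm1* at chr3:67337429-67383862 on the plus strand.

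*Tsfm*, the exchange factor that recharges TUFM with GTP, was at 30.3, 35.1 and 38.8 CPM in Ctrl and at 24.3, 32.8 and 35.2 CPM in hMut. Here 8 of 9 hMut hearts were below the Ctrl median, and the log2 fold change was −0.11 (SE 0.070, edgeR adjusted p = 0.318). *Guf1*, the relative of the bacterial factor LepA, was at 35.4, 36.2 and 40.4 CPM in Ctrl and at 29.8, 34.5 and 39.3 CPM in hMut. In hMut 6 of 9 hearts were under the Ctrl range, the most of the 10 factors, with a log2 fold change of −0.11 (SE 0.055, edgeR adjusted p = 0.215). *Gfm1* and *Guf1* overlap *Lxn* and *Gnpda2* on the other strand and *Tsfm* overlaps *Avil*. Use of the strand in counting is not stated, so reads could be shared, although these partners had low mean counts of 114, 330 and 70.9 per library. On GRCm39, *Tsfm* lies at chr10:126847441-126866709 on the minus strand and *Guf1* at chr5:69714266-69733316 on the plus strand.

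Neither initiation factor was called with libraries scaled over all genes. *Mtif2*, which binds the initiator tRNA to the small subunit, was at 52.1, 56.5 and 60.3 CPM in Ctrl and at 41.7, 53.0 and 60.3 CPM in hMut. In hMut 3 of 9 hearts were below every Ctrl heart (log2 fold change −0.12, SE 0.067, edgeR adjusted p = 0.240). *Mtif3*, which helps to place the mRNA on the small subunit, was at 13.5, 14.9 and 17.2 CPM in Ctrl and at 12.1, 15.3 and 17.7 CPM in hMut. The hMut hearts were spread to both sides, with 3 above and 2 below every Ctrl heart (log2 fold change 0.016, SE 0.079, edgeR adjusted p = 0.915). The sign of so small a value was not stable, since it was negative in 5 of the 17 fits that left out 1 heart. *Mtif3* overlaps *Gtf3a* on the other strand over 4042 bp. On GRCm39, *Mtif2* lies at chr11:29476408-29495279 on the plus strand and *Mtif3* at chr5:146888383-146900610 on the minus strand.

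The release factors were among the less abundant. *Mtrf1*, a release factor thought to act at noncanonical stop codons, was at 11.7, 13.0 and 14.0 CPM in Ctrl and at 9.20, 11.7 and 13.8 CPM in hMut. In hMut 8 of 9 hearts were below the Ctrl median (log2 fold change −0.14, SE 0.076, edgeR adjusted p = 0.234). *Mtrf1l*, the main release factor for the standard stop codons, was at 11.1, 13.4 and 14.8 CPM in Ctrl and at 7.94, 12.6 and 16.3 CPM in hMut. It had the widest spread among hMut hearts, with 1 above and 2 below every Ctrl heart (log2 fold change −0.14, SE 0.105, edgeR adjusted p = 0.409). On GRCm39, *Mtrf1* lies at chr14:79635212-79661027 on the plus strand and *Mtrf1l* at chr10:5761887-5773910 on the minus strand.

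With libraries scaled over all genes, the recycling factors had the smallest negative fold changes. With cardiomyocyte scaling both were called higher, where 44.8% of all genes were called, and both stayed below the median of all genes, as given below. *Mrrf*, the ribosome recycling factor, was at 41.8, 44.2 and 47.0 CPM in Ctrl and at 34.8, 44.1 and 48.6 CPM in hMut. The group medians differed by less than the spread among Ctrl hearts (log2 fold change −0.03, SE 0.057, edgeR adjusted p = 0.753). *Gfm2*, the GTPase that works with MRRF to split the ribosome, was at 78.8, 88.6 and 95.7 CPM in Ctrl and at 67.1, 88.7 and 96.0 CPM in hMut. The hMut hearts were spread wider on both sides, with 4 below and 1 above every Ctrl heart (log2 fold change −0.07, SE 0.067, edgeR adjusted p = 0.527). *Mrrf* overlaps *Rbm18* on the other strand over 385 bp. On GRCm39, *Mrrf* lies at chr2:36026401-36080659 on the plus strand and *Gfm2* at chr13:97274445-97317703 on the plus strand.

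None of the 10 factors separated the groups completely, where 0.605% of all tested genes did. What the factors shared was the position of 2 hearts. In hMut replicates 6 and 9 all 10 factors were below every Ctrl heart, and these were the 2 lowest hMut hearts for each of the 10. Among all tested genes 19.3% were below every Ctrl heart in both libraries. This pattern was chosen after the values were seen, and it is given as a description. The median over the 10 factors of the log2 difference from the Ctrl mean was −0.43 in replicate 6 (range −0.75 to −0.19) and −0.34 in replicate 9 (−0.56 to −0.24). In the other 7 hMut hearts this median lay between −0.097 and 0.083, and between 0 and 3 of the 10 factors were below every Ctrl heart.

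The difference of −0.75 was that of *Mtrf1l* and the difference of −0.19 that of *Mtif3*, both in replicate 6. The CV of the factors among hMut hearts was between 9.11% and 19.5%, and between 4.06% and 9.05% among Ctrl hearts, and it was higher in hMut for 10 of 10. With replicates 6 and 9 left out it was still higher in hMut for 8 of 10. Some of these differences were small, such as 4.19% against 4.06% for *Mrrf* and 9.34% against 9.05% for *Mtif3*. It was lower in hMut for *Tsfm* (3.49% against 8.26%) and *Tufm* (6.06% against 6.64%). The share of all tested genes with a higher CV in hMut was not computed, so these counts are not read as particular to the factors. The fold changes without these 2 hearts ranged from −0.10 (*Gfm1*) to 0.087 (*Mtif3*), with a median of −0.045. In that fit 0 of 10 factors were called by edgeR, where 2.67% of all genes were, and 0 had an unadjusted p under 0.05, where 18.6% of all genes had, with a lowest adjusted p of 0.282.

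Summed levels of cardiomyocyte, immune cell and fibroblast markers also differed in these 2 hearts. In replicates 6 and 9 the cardiomyocyte markers summed to 41568 and 38263 CPM, below the other hMut hearts (48935 to 58582) and every Ctrl heart. All 12 markers had a negative fold change (median −0.24) and 0 were called by edgeR, with 9 at an unadjusted p under 0.05. The 11 immune cell markers summed to 1141 and 559 CPM in the same 2 hearts, against 205 to 342 CPM in Ctrl and 259 to 345 CPM in the other hMut hearts. The 6 fibroblast markers summed to 1747 and 1370 CPM, against 853 to 1020 CPM in Ctrl and 862 to 1056 CPM in the other hMut hearts. Of 5 endothelial markers 1 was called higher, *Kdr* (log2 fold change 0.39, edgeR adjusted p = 0.0407), and it was no longer called without replicates 6 and 9 (0.40, edgeR adjusted p = 0.0546) or in 11 of the 17 fits that left out 1 heart. For the immune and fibroblast lists edgeR called 0 of 11 and 0 of 6, with 6 and 5 at an unadjusted p under 0.05. Of the 11 immune markers 8 had a positive and 3 a negative fold change (median 0.62), so their sum did not stand for each marker. With replicates 6 and 9 left out, 6 of 11 were negative (median −0.19). Of the 6 fibroblast markers 5 were positive (median 0.31, and 0.10 with those 2 hearts left out). The part of these shifts in cell markers in the levels of the factors was not tested.

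The summed level of the 10 factors was 517 CPM in replicate 6 and 529 CPM in replicate 9, against 647 to 770 CPM in Ctrl and 649.7 to 758 CPM in the other hMut hearts. Per 1000 CPM of cardiomyocyte markers the factors summed to 11.7, 12.3 and 13.0 CPM in the lowest, median and highest Ctrl heart and to 12.5, 13.4 and 13.9 CPM in hMut. On this scale replicates 6 and 9 were at 12.5 and 13.8 CPM, inside the range of the other hMut hearts for replicate 9 and below it for replicate 6, whereas the groups still overlapped. This scale was added after the values were seen.

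**Figure D2:**
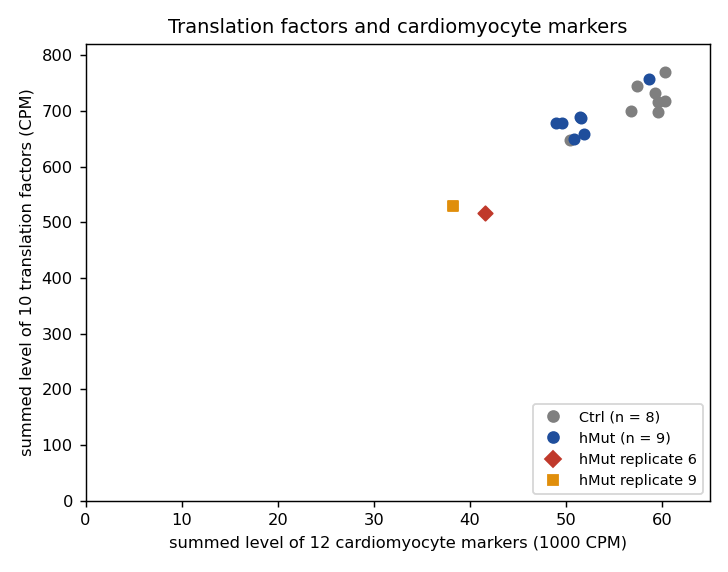
Summed level of the 10 translation factors (vertical axis, CPM) against that of 12 cardiomyocyte markers (horizontal axis, in 1000 CPM), with one point per heart and both axes from 0. The hMut replicates 6 and 9 sit lowest on both axes, at 517 and 529 CPM of factors, and the other 15 hearts lie between 647 and 770 CPM.

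Scaling the libraries on the cardiomyocyte markers in the model moved the median log2 fold change of all tested genes from 0.0023 to 0.25, and the split of called genes from 564 higher and 185 lower to 7170 higher and 88 lower. With this scaling 3 of 10 factors were called higher in hMut, where 44.8% of all genes were called. These were *Mtif3* (log2 fold change 0.26, edgeR adjusted p = 0.0169), *Mrrf* (0.21, edgeR adjusted p = 0.00992) and *Gfm2* (0.17, edgeR adjusted p = 0.0277). The members' median became 0.12, below the 0.25 of all genes. Relative to the median of all genes, *Tufm* and *Gfm1* were at −0.20 with this scaling and at −0.18 with the scaling over all genes. Of the 3 called factors, *Mrrf* was at −0.048, *Gfm2* at −0.08 and *Mtif3* at 0.0023 relative to that median with cardiomyocyte scaling.

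**Figure D3:**
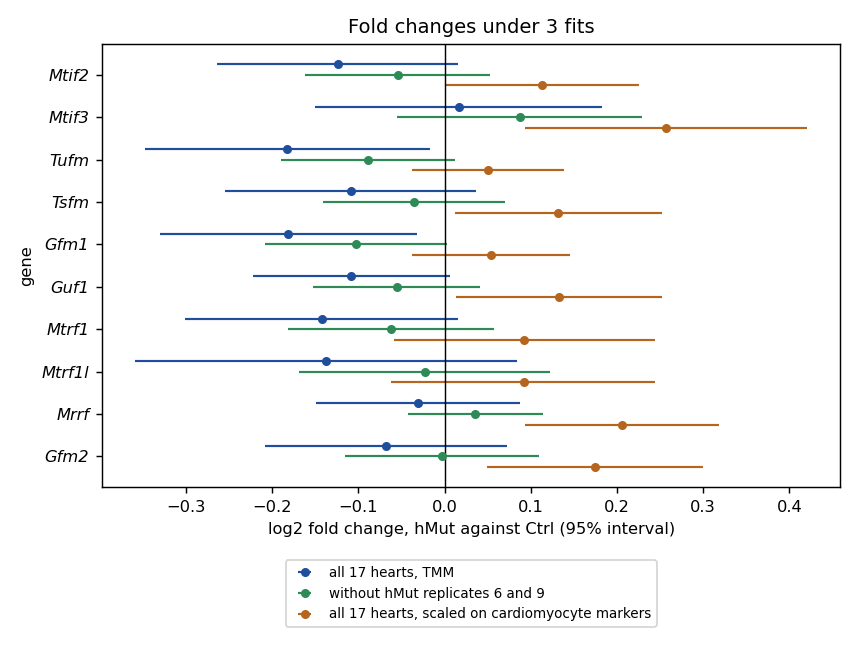
Log2 fold change of hMut against Ctrl (horizontal axis; points) with 95% intervals (lines) for each factor (vertical axis) in 3 fits. With all 17 hearts scaled over all genes 9 of 10 points are negative, without hMut replicates 6 and 9 they lie between −0.10 and 0.087, and scaled on cardiomyocyte markers all 10 are positive.

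Ratios of factors that work together or are paralogues were compared within each heart, since a ratio does not depend on the scaling between libraries. *Tufm* to *Tsfm* had a mean log2 ratio of 2.46 ± 0.10 (SD, n = 9) in hMut and of 2.54 ± 0.047 (SD, n = 8) in Ctrl, a difference of −0.08 (two-sided exact permutation test over 24310 splits, p = 0.0553, adjusted over 5 ratios 0.180). In hMut 6 of 9 hearts had a lower ratio than any Ctrl heart, and the groups overlapped through the other 3. *Gfm1* to *Gfm2* differed by −0.12 (exact permutation p = 0.0718, adjusted 0.180), with 5 of 9 hMut hearts below all Ctrl hearts. *Mtif2* to *Mtif3* differed by −0.14 (exact permutation p = 0.123, adjusted 0.206). The differences between groups for *Mtrf1l* to *Mtrf1* (−0.0074, exact permutation p = 0.939, adjusted 0.939) and *Gfm2* to *Mrrf* (−0.038, exact permutation p = 0.544, adjusted 0.681) were close to 0. None of the 5 ratios passed the threshold.

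**Figure D4:**
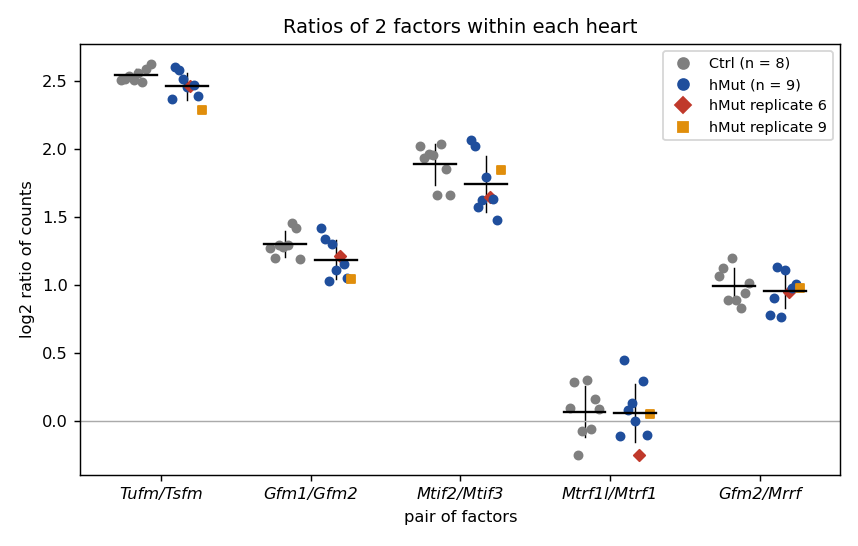
Log2 ratio of counts of 2 factors in the same library (vertical axis) for 5 pairs (horizontal axis), with one point per heart, bars for the group mean and lines for 1 SD. The largest mean difference between groups is −0.14 for Mtif2 to Mtif3, and the groups overlap for all 5 ratios.

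Across hearts of one group, partner factors were compared by correlation for 5 pairs in 2 groups, 10 relations in all. In Ctrl, the levels of *Tufm* and *Tsfm* were correlated (Pearson's r = 0.93, exact permutation p = 0.00109, adjusted 0.0109; Spearman's rho = 0.81, exact permutation p = 0.0218, adjusted 0.218; n = 8). Without the 2 hearts farthest from the median, r was 0.84 (exact permutation p = 0.0611, adjusted 0.306), and the relation was no longer called over these 6 hearts. In hMut no pooled r is given because replicates 6 and 9 stand apart. Over the other 7 hMut hearts r was 0.21 for *Tufm* and *Tsfm* (exact permutation p = 0.708, adjusted 0.884), and none of the other 4 pairs passed the threshold.

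The other lists of the pathway are given beside the shares over all tested genes, 4.62% called and 25.8% at an unadjusted p under 0.05. Of 10 genes for rescue of stalled ribosomes, the initiator tRNA and the nascent chain, 0 were called by edgeR (median log2 fold change −0.10; 1 at an unadjusted p under 0.05), and the lowest adjusted p were those of *Taco1*, an activator of COX1 translation (−0.20, adjusted p = 0.133), and *Metap1d* (−0.17, adjusted p = 0.211). Of 23 mitoribosome assembly genes, 0 were called by edgeR (median −0.06; 1 at an unadjusted p under 0.05), led by *Gtpbp10* (−0.14, adjusted p = 0.172) and *Ddx28* (0.13, adjusted p = 0.196). Of 17 mitochondrial aminoacyl-tRNA synthetases, 0 were called by edgeR (median −0.11; 6 at an unadjusted p under 0.05). The smallest adjusted p in that list were those of *Hars2* (−0.21, 0.0807), the histidyl-tRNA synthetase, and *Nars2* (−0.18, 0.126), the asparaginyl-tRNA synthetase, both with 7 of 9 hMut hearts below every Ctrl heart.

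Of 78 mitochondrial ribosomal protein genes 77 were tested and 0 were called by edgeR (median −0.05; 12 at an unadjusted p under 0.05), with *Mrpl18* at −0.22 (adjusted p = 0.0676) and *Mrps10* at 0.17 (adjusted p = 0.0707). Of 16 genes of mitochondrial tRNA modification 1 was called, and it was higher in hMut. This was *Pus1*, a pseudouridine synthase, with a mean of 14.3 ± 1.09 CPM for Ctrl (SD, n = 8) against 17.3 ± 1.62 CPM for hMut (SD, n = 9) and 7 of 9 hMut hearts above every Ctrl heart (log2 fold change 0.28, SE 0.063, edgeR adjusted p = 0.0170). *Yrdc*, which makes a threonylcarbamoyl group for tRNA, was at 0.20 (edgeR adjusted p = 0.0529). In hMut replicates 6 and 9 together, 47 of 77 ribosomal protein genes, 14 of 17 synthetases, 15 of 23 assembly genes, 5 of 10 genes for rescue, the initiator tRNA and the nascent chain, and 5 of 16 tRNA modification genes were below every Ctrl heart. The same held for 10 of 13 mtDNA-encoded mRNAs, 4 of 19 cytosolic translation factors, 7 of 12 cardiomyocyte markers and 19.3% of all genes.

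Counts of the mRNAs that these factors translate did change in these poly(A)-selected libraries. Of 13 mtDNA-encoded mRNAs 9 were called lower and 0 higher (median log2 fold change −0.65), where 1.14% of all tested genes were called lower. Among them were *mt-Nd4l* (−1.30, edgeR adjusted p = 0.000396) and *mt-Nd2* (−0.77, edgeR adjusted p = 0.000883), which encode subunits of complex I. Scaled on cardiomyocyte markers, 9 of 13 were also called lower and 0 higher (median −0.44), where 88 of 16195 genes were called lower. Without replicates 6 and 9 the count was 8 (median −0.59), where 115 of 16159 genes were called lower. Whether poly(A) selection had a part in these counts was not tested. The difference between these changes and those of the factors was not tested.

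**Figure D5:**
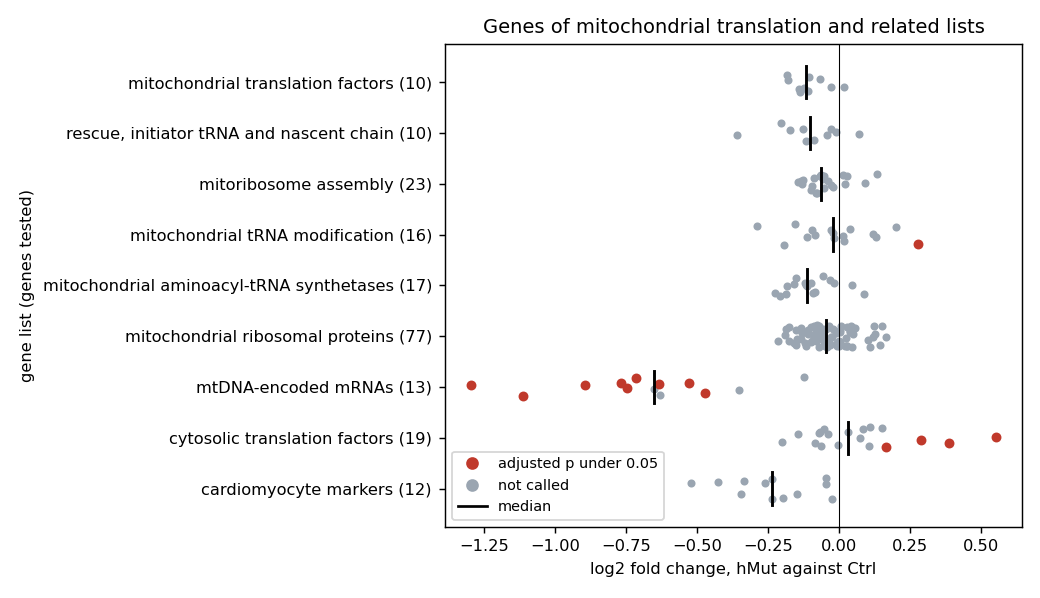
Log2 fold change of hMut against Ctrl (horizontal axis) of every tested gene in 9 lists (vertical axis, with the number of genes), with a bar at the median and called genes in red. The translation factors (median −0.12) hold no called gene, whereas 9 of 13 mtDNA-encoded mRNAs are called lower and 4 of 19 cytosolic translation factors higher.

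The cytosolic counterparts gave 4 calls of 19 genes, all higher, where 3.48% of all genes were called higher (median log2 fold change 0.03, and 0.29 with 16 called higher when scaled on cardiomyocyte markers). The count called higher was 3 with upper-quartile normalization, with sex as a covariate, with no filter on low counts and without replicates 6 and 9. It was 2 with the replicate number as a block, a fit without hMut replicate 9, and 6 with DESeq2, and limma-voom called 5 higher and 1 lower. With 1 heart left out it was 3 to 6, and without hMut replicate 2 the fit also called 1 lower. *Eif2s2*, the beta subunit of the factor that carries the initiator tRNA, had a mean of 100.1 ± 5.77 CPM for Ctrl (SD, n = 8) against 131 ± 13.9 CPM for hMut (SD, n = 9), with 9 of 9 hMut hearts above every Ctrl heart (0.38, SE 0.061, edgeR adjusted p = 0.00122). *Eif4a1*, an initiation helicase, had a mean of 146 ± 5.94 CPM for Ctrl (SD, n = 8) against 178 ± 20.5 CPM for hMut (SD, n = 9), again with 9 of 9 above (0.29, edgeR adjusted p = 0.0111). *Eef1a1*, the cytosolic counterpart of *Tufm*, was higher in hMut (0.55, SE 0.13, edgeR adjusted p = 0.0224), with 7 of 9 hearts above and 1 below every Ctrl heart. Without hMut replicates 6 and 9 the log2 fold change was 0.37 for *Eef1a1* (edgeR adjusted p = 0.0278), 0.34 for *Eif2s2* and 0.21 for *Eif4a1*, and all 3 were still called. The part of the shifts in cell markers in these values was not tested. *Abce1*, a recycling factor named here because it completes the count, was at 0.17 (edgeR adjusted p = 0.0400). It was the call lost in each of the fits with 3 calls, among them 10 of the 17 that left out 1 heart. *Eef1a2*, the muscle paralogue of *Eef1a1*, was at −0.14 (edgeR adjusted p = 0.183), *Eef2*, the counterpart of *Gfm1*, at 0.08 (edgeR adjusted p = 0.285) and *Eif5b*, the counterpart of *Mtif2*, at −0.06 (edgeR adjusted p = 0.391).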

How the data were processed

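Poly(A)-selected RNA from 17 hearts was measured, 8 Ctrl and 9 hMut by the labels, with 1 library each. The authors deposited 1 table of unnormalized read counts by gene. By the study's methods and the submitters' processing notes, reads were filtered with fastp, aligned to GRCm39 with HISAT2 2.2.1 and counted with featureCounts 2.0.6. Use of strand in counting is not given in the sources used here.

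Genes were tested with edgeR 4.0.16 (R 4.3.3; quasi-likelihood test, TMM, filterByExpr, group only, Benjamini-Hochberg over 16195 genes, threshold 0.05). SEs are the absolute log2 fold change over the square root of F. The study names DESeq2, here an alternative (1.42.0), as was limma 3.58.1 with voom. Ratios (0.5 added to counts) and correlations (log2 CPM, prior count 2) used exact permutation in Python 3.11.15 with numpy 2.4.6 and scipy 1.17.1. Scripts were tested on simulated data. P-values judge a group difference or a correlation against the variation between these hearts, and counting CVs cover counting error only.

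Members and lists were chosen with earlier results of these data known. All members are named, with at most 2 genes of the smallest adjusted p per other list, *Polg*, *Eef1a1*, *Eef1a2*, *Eef2* and *Eif5b*. *Abce1* was named after its value was seen. Alternatives were RLE and upper-quartile normalization, other filters, sex, leaving out noncoding and mtDNA-encoded genes, a replicate block, cardiomyocyte-marker scaling, and hearts left out. Protein sequences were not used here.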

Additional observations from a re-analysis of the deposited data

Results flagged for a closer look

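In the Ctrl group *Mtrf1l* was lowest in Ctrl replicate 3, at 11.13 CPM, which lay far from the other 7 Ctrl hearts: the gap to the nearest of them was 0.537 of the group's range. Of 30 groups of values examined this was the 1 that stood out, and chance gives about 1 in 20 groups. The same heart had the lowest summed level of the factors (647 CPM) and of the cardiomyocyte markers (50363 CPM) among Ctrl hearts.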

How the results depend on the processing

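The members' count stayed at 0 of 10 under every alternative except cardiomyocyte-marker scaling (3, with 7258 genes called overall and 105 in the other pathway lists, against 749 and 14) and leave-one-out, where it was 0 to 1. That scaling turned 9 log2 fold changes positive: *Mtif2* 0.1129, *Tufm* 0.0501, *Tsfm* 0.1318, *Gfm1* 0.0536, *Guf1* 0.1325, *Mtrf1* 0.0926, *Mtrf1l* 0.0915, *Mrrf* 0.2062 and *Gfm2* 0.1741. *Mtif3* (0.016) was negative without Ctrl replicate 3 (−0.0075) or 6 (−0.0019) or hMut replicate 3 (−0.0106), 4 (−0.0105) or 7 (−0.0055), and ranged up to 0.0546 with 1 heart left out, 0.0873 without hMut replicates 6 and 9 and 0.2569 with cardiomyocyte-marker scaling. *Mrrf* was positive without hMut replicate 6 (0.0038) and without replicates 6 and 9 (0.0354), and its lowest leave-one-out value was −0.054. The *Mtrf1l* to *Mtrf1* ratio ranged from −0.0557 to 0.0313 with 1 heart left out and was 0.0382 without both hearts. Without the 2 hearts farthest on the first gene, r in hMut was −0.5346 for *Mtif2* and *Mtif3*, −0.3297 for *Mtrf1l* and *Mtrf1*, −0.2692 for *Gfm2* and *Mrrf* and 0.2077 for *Tufm* and *Tsfm* (Spearman's rho over all 9 hearts 0.3833). In Ctrl, over 6 hearts, it was −0.851 for *Gfm2* and *Mrrf* (exact permutation p = 0.0292, adjusted 0.292), against −0.3423 over all 8 hearts. It was −0.5002 for *Gfm1* and *Gfm2*, −0.0756 for *Mtif2* and *Mtif3* and 0.8395 for *Tufm* and *Tsfm* (rho 0.8095). None of the 10 relations with 2 hearts left out passed the threshold, and 0.292 was the lowest adjusted p. All tested genes gave 749 calls, 1548 with DESeq2, 2081 with limma-voom, 463 with no filter on low counts, 431 without hMut replicates 6 and 9, and 395 to 1792 with 1 heart left out (most without hMut replicate 2). The other pathway lists gave 14 calls, 23 with DESeq2, 29 with limma-voom, 5 without mtDNA-encoded genes, which removes the 9 mtDNA-encoded calls, and 11 to 23 with 1 heart left out. Apart from that removal, the cause of these shifts was not tested. The fit with the replicate number as a block used 16 hearts, because hMut replicate 9 has no Ctrl heart of its number. It called 185 genes, 9 pathway genes and 0 of 10 members, and *Eef1a1* (adjusted p = 0.0941), *Abce1* (0.159), *Pus1* (0.0760) and *Kdr* (0.120) lost their calls in edgeR. Without hMut replicate 9 and with no block, 415 genes were called, and *Abce1* (edgeR adjusted p = 0.0708) and *Kdr* (0.0724) were also not called. The deviations of same-numbered hearts correlated between −0.225 and 0.339, above 0.1 for 1 of 8 numbers, and 1 of 8 Ctrl hearts correlated best with its own number. The labels do not say whether same-numbered hearts were paired. These correlations cannot settle it, because paired hearts need not deviate alike. The smallest count of a member in a library was 335 (*Mtrf1l*), a counting CV of 5.46%.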
